A study of Homo sapiens with 6 samples.

Results

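Notch signalling passes between touching cells, and 10 genes of this pathway were followed in HCC827 cells grown as 3D tumoroids or as a 2D monolayer. The genes were the ligands JAG1, JAG2 and DLL1, the receptors NOTCH1, NOTCH2 and NOTCH3, and the target genes HES1, HES4, HEY1 and NRARP. They were chosen by name as a pathway, with earlier results of these data known. Each name matched a single protein-coding row among the 60504 genes of the table. All 10 are described. A filter at 1 TPM on the average of all 6 libraries kept 9 of them for testing, DLL1 being below it.

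HCC827 is an established line of human lung adenocarcinoma cells that carry an activating EGFR mutation. The 3D group held 3 libraries from tumoroids embedded in drops of Matrigel, a basement membrane extract depleted of growth factors, seeded with 50000 cells and kept for 12 to 16 days. The 2D group held 3 libraries from cells in uncoated flasks, seeded with 1000000 cells and kept for 4 to 6 days in the same serum-containing medium. Geometry, culture time, seeding number and the gel differ together between the groups, and their effects cannot be told apart. Whether libraries of 1 group stem from separately grown cultures is not in the labels, so the p-values speak of how far these libraries scatter, and that scatter may be technical.

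Expression was measured by RNA-seq of poly(A) RNA and deposited as TPM (transcripts in every 1000000), a share of each library's transcripts corrected for transcript length, so that levels of different genes can be compared. TPM keeps no sequencing depth, so the depth behind each value is unknown and no counting interval is given. As shares, TPM of some genes go down where those of others go up. Each library in 3D listed 24926 to 26387 genes above 0, and each in 2D 23908 to 24583. The first principal component (52.7% of the variance) separated the cultures, and the second (19.5%) set 2D replicate 3, and less so 3D replicate 3, apart from the others of their group. Of 8 lung epithelial genes, all were tested and none was called, beside 10.2% called higher and 2.12% lower over all tested genes. EPCAM, an epithelial adhesion molecule, stood at 567 to 589 TPM in 3D and 573 to 631 TPM in 2D. KRT18, a keratin of simple epithelia, lay below 2D in every 3D library (1073 ± 385 TPM in 3D, 1761 ± 191 TPM in 2D; limma adjusted p = 0.0794), and SFTPB, a surfactant protein gene, above it (6.16 ± 4.22 TPM in 3D, 0.637 ± 0.26 TPM in 2D; limma adjusted p = 0.0512; SD, n = 3 each). Leukocyte, endothelial and fibroblast markers were near 0 apart from CD68, COL1A1 and, in 3D, KDR. CD68, a lysosomal glycoprotein used as a macrophage marker, made up most of the summed leukocyte list (45.9 to 87.0 TPM in 3D, 68.7 to 96.3 TPM in 2D), while PTPRC, the defining leukocyte gene, stayed at or below 0.25 TPM. The fibroblast list summed to 5.50 to 11.0 TPM in 3D and 2.02 to 2.69 TPM in 2D, nearly all from COL1A1, with COL3A1 listed at 0 in every library. In bulk RNA, fewer cells of a type and less RNA per cell cannot be told apart.

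Notch receptors are membrane proteins that bind Jagged or Delta-like ligands on a neighbouring cell. The pull of the ligand exposes the receptor to ADAM proteases and then to gamma-secretase, which frees the intracellular domain to enter the nucleus. There it joins the DNA-binding protein RBPJ and a Mastermind coactivator and switches on HES and HEY genes, which encode transcriptional repressors, and NRARP, a feedback inhibitor. In the airway, Notch signals steer basal cells towards secretory and away from ciliated and neuroendocrine fates.

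The control regions of HES1 and HES4 are shown because both carry TGGGAA, a form of the core letters that RBPJ binds, close to the start of transcription. The 100 bases from 150 to 51 bases before the RefSeq start of each gene (GRCh38.p14, on the gene's own strand) are printed 5′ to 3′, with TGGGAA in capitals. The HES1 window is chr3:194135998-194136097 on the plus strand, and the HES4 window is chr1:1000148-1000247 on the minus strand, whose last bases lie inside the longer HES4 gene model of GENCODE 29.
HES1: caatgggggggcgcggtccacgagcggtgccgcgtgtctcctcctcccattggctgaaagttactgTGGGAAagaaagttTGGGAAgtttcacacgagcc
HES4: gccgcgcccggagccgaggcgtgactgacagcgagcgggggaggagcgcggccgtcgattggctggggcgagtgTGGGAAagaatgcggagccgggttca
HES1 had 2 matches on the same strand, 8 bases apart, and HES4 had 1. In a search of both strands of the 250 bases before the start, these were the matches among the 8 of the 10 genes searched. DLL1 had no entry in the RefSeq promoter table, and HEY1 was left out of the search. TGGGAA was present in 20.8% of 35114 promoters searched in the same way, and 2 or more matches in 2.90%. The longer form GTGGGAA, which overlaps the TGGGAA match, was found once in each of HES1 and HES4 and in 5.43% of all promoters. A match describes the letters only, not a bound site. Other forms of the RBPJ site were not searched or marked, so the capitals need not show every site. HES1 and HES4 had different expression values across the cultures, given below.

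JAG1 was higher and HES1 lower in 3D, and the other 7 tested genes did not pass the test. The test was limma on log2(TPM + 1) over 15042 genes, with an adjusted p under 0.05 counted as called. Over all tested genes 10.2% were called higher and 2.12% lower in 3D, against 1 of 9 members (11.1%) in each direction. The share called higher is near that of all genes, and the share called lower rests on 1 gene. Since the members were chosen with earlier results known, these shares cannot be weighed against those of all genes. All 3 libraries in 3D lay above all 3 in 2D for JAG1 and HEY1 (2 of 9, against 27.3% of all tested genes) and below them for HES1 and NRARP (2 of 9, against 9.40%). The median log2 fold change of the 9 members was 0.53, beside 0.12 for all tested genes.

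**Figure D1:**
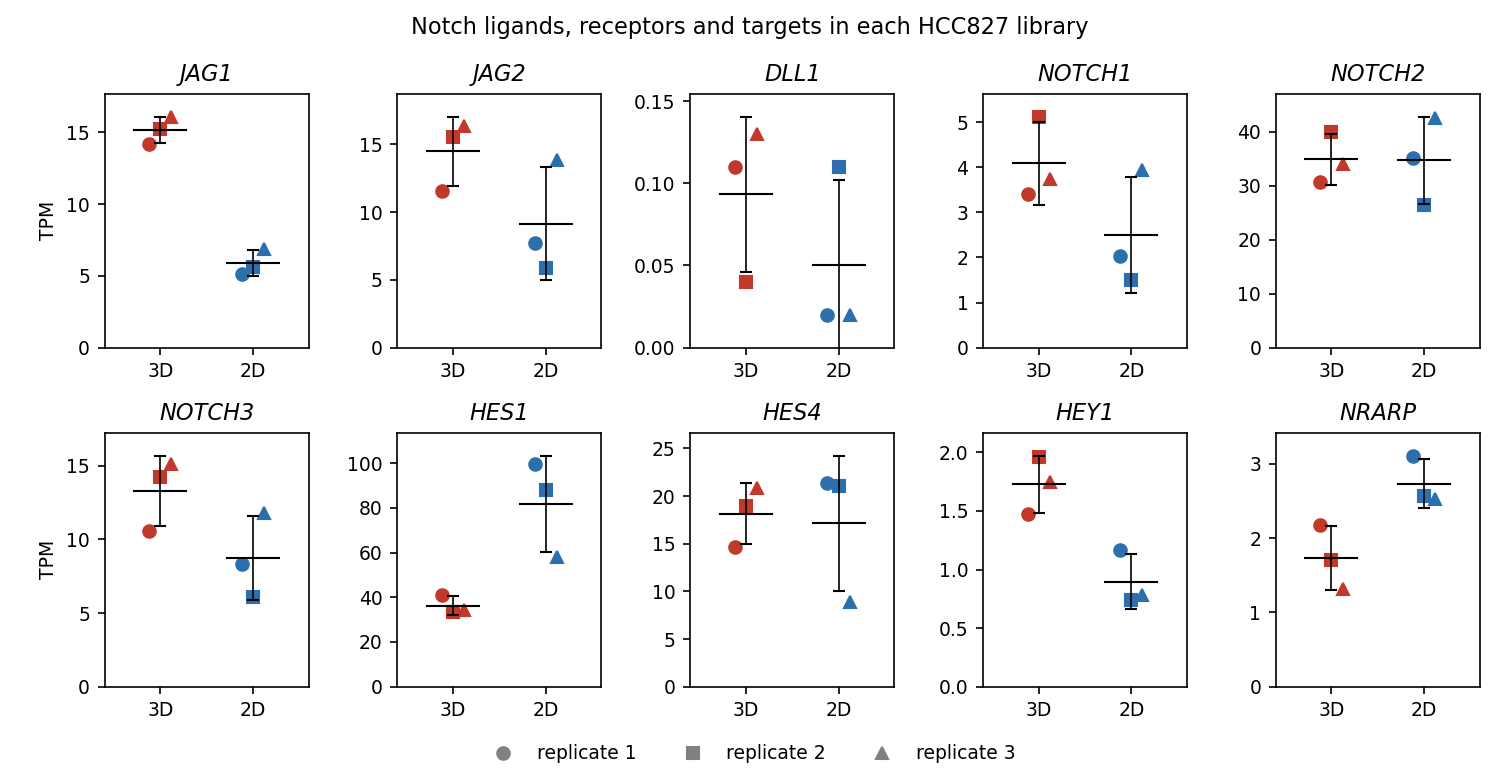
TPM (vertical axes, each starting at 0 with its own scale) of the 10 genes in the 3 libraries of 3D culture (red, left) and of 2D culture (blue, right); lines are means, bars are SD (for DLL1 in 2D the lower end is cut at 0), and symbols give the replicate number. JAG1 lies between 14.2 and 16.1 TPM in 3D, above every 2D library, and HES1 between 33.3 and 41.0 TPM in 3D, below every 2D library.

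JAG1 (ENSG00000101384, chr20:10637684-10673999, minus strand, GRCh38) encodes Jagged1, a transmembrane ligand of the Notch receptors. It had 14.2, 15.2 and 16.1 TPM in 3D replicates 1, 2 and 3, against 5.13, 5.60 and 6.90 TPM in 2D replicates 1, 2 and 3. The lowest 3D library stood well above the highest 2D library, and the libraries of each group lay close together. The means were 15.2 ± 0.936 TPM in 3D and 5.88 ± 0.917 TPM in 2D (SD, n = 3 each), 2.58 times as high in 3D. The log2 fold change was 1.24 (SE 0.15, limma adjusted p = 0.0043), and JAG1 was called under all 17 alternative settings run, with log2 fold changes of 0.89 to 1.36 and adjusted p between 0.00362 and 0.0279.

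JAG2 (ENSG00000184916, chr14:105140981-105168824, minus strand), the gene of the second Jagged ligand, had 11.6, 15.5 and 16.3 TPM in 3D, against 7.71, 5.86 and 13.8 TPM in 2D. The groups overlapped through 2D replicate 3, which had 2.04 times the mean of the other 2D libraries. JAG2 had a log2 fold change of 0.67 (SE 0.29, limma adjusted p = 0.156). Without 2D replicate 3 it was 0.99 (adjusted p = 0.0246), and without both libraries numbered 3 it was 0.90 (adjusted p = 0.0256), so the call of JAG2 turns on that library.

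DLL1 (ENSG00000198719, chr6:170282206-170306565, minus strand), a Delta-like ligand, was listed at 0.11, 0.04 and 0.13 TPM in 3D and at 0.02, 0.11 and 0.02 TPM in 2D. The groups overlapped and DLL1 was not tested. It overlaps FAM120B on the opposite strand, which reached 15.3 TPM, and since the strand setting of the counting is not given in the sources used here, reads of either gene may have been counted for the other. The other ligand and receptor genes (DLL3, DLL4, DLK1, DLK2 and NOTCH4) were all below the filter. DLL4, a ligand best known from blood vessels, was listed at 1.22, 0.96 and 1.62 TPM in 3D and 0.79, 0.60 and 0.60 TPM in 2D. DLL3, a ligand of neuroendocrine tumours, was listed at 0.41, 0.69 and 0.19 TPM in 3D and 0.84, 0.96 and 0.81 TPM in 2D. Both genes stood apart between the groups, in opposite directions. Over all tested genes, 27.3% had every 3D library above every 2D library, and 9.40% had every 3D library below. At such low TPM the counting error is unknown. The 5 endothelial markers, none of them tested, summed to 1.51 to 4.01 TPM in 3D and 0.68 to 1.48 TPM in 2D. KDR gave 1.72, 2.5 and 0.64 TPM of this in 3D and at most 0.08 TPM in 2D. The part of these markers in the DLL4 values was not tested.

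The summed level of JAG1, JAG2 and DLL1 was 29.7 ± 3.45 TPM in 3D and 15.1 ± 4.96 TPM in 2D (SD, n = 3 each), with every 3D library above every 2D library. An exact two-sided permutation test of 3 against 3 cannot give a p under 0.10, and it gave p = 0.10 here (0.15 after Benjamini-Hochberg adjustment over the 3 class sums tested). JAG1 made up 51.2% ± 3.15 of the ligand sum in 3D and 40.5% ± 7.59 in 2D (exact permutation p = 0.10, adjusted over 9 shares 0.112). JAG1 and JAG2 were nearly level in 3D, with JAG1 over JAG2 ratios of 1.23, 0.98 and 0.983, while the ratios in 2D were 0.665, 0.956 and 0.499.

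The receptors were led by NOTCH2 in every library. NOTCH2 (ENSG00000134250, chr1:119911553-120069626, minus strand) had 30.7, 40.0 and 34.1 TPM in 3D, against 35.1, 26.5 and 42.7 TPM in 2D. The means, 34.9 ± 4.72 TPM in 3D and 34.8 ± 8.08 TPM in 2D (SD, n = 3 each), were almost the same and the groups overlapped fully. The log2 fold change was 0.02 (SE 0.19, limma adjusted p = 0.944), and it was negative in 4 of 17 alternatives: -0.13 under median-ratio scaling, -0.08 under quantile normalization, -0.15 when 2D replicate 2 was left out and -0.08 when 3D replicate 2 was. NOTCH2NL, a partial copy of NOTCH2 with nearly identical sequence, was listed at 7.60 to 9.37 TPM in 3D and 7.20 to 8.88 TPM in 2D, so how reads were divided between the copies is uncertain.

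NOTCH3 (ENSG00000074181, chr19:15159038-15200981, minus strand) had 10.6, 14.2 and 15.1 TPM in 3D, against 8.32, 6.12 and 11.8 TPM in 2D. The groups overlapped only because 2D replicate 3 exceeded 3D replicate 1. The log2 fold change was 0.58 (SE 0.24, limma adjusted p = 0.149), and without 2D replicate 3 it was 0.80 (adjusted p = 0.0483). With both libraries numbered 3 left out it was 0.70 and not called (limma adjusted p = 0.0556). NOTCH1 (ENSG00000148400, chr9:136494433-136545786, minus strand), the receptor first linked to human leukaemia, was the lowest of the 3, with 3.40, 5.12 and 3.73 TPM in 3D against 2.04, 1.50 and 3.94 TPM in 2D. Again 2D replicate 3 lay among the 3D libraries. The log2 fold change was 0.59 (SE 0.28, limma adjusted p = 0.203), passing the test only without both libraries numbered 3 (0.91, adjusted p = 0.0454) among the alternatives run.

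The summed receptor level was 52.3 ± 7.38 TPM in 3D and 46.0 ± 12.1 TPM in 2D (SD, n = 3 each), with overlapping groups (exact permutation p = 0.50, also 0.50 after adjustment over the 3 sums). NOTCH2 held 68.7%, 67.4% and 64.5% of the receptor sum in 3D, against 77.2%, 77.7% and 73.1% in 2D. NOTCH3 held 23.6%, 23.9% and 28.5% in 3D, against 18.3%, 17.9% and 20.2% in 2D. For both, the 3D and 2D libraries did not overlap, 2D replicate 3 included, with mean differences of -9.11 percentage points for NOTCH2 and 6.55 for NOTCH3 (exact permutation p = 0.10 each, the smallest possible, and 0.112 adjusted over 9 shares). NOTCH1 held 7.76% ± 0.803 in 3D and 5.21% ± 1.33 in 2D. Shares of a class sum to 100%, so these are not independent of each other.

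**Figure D2:**
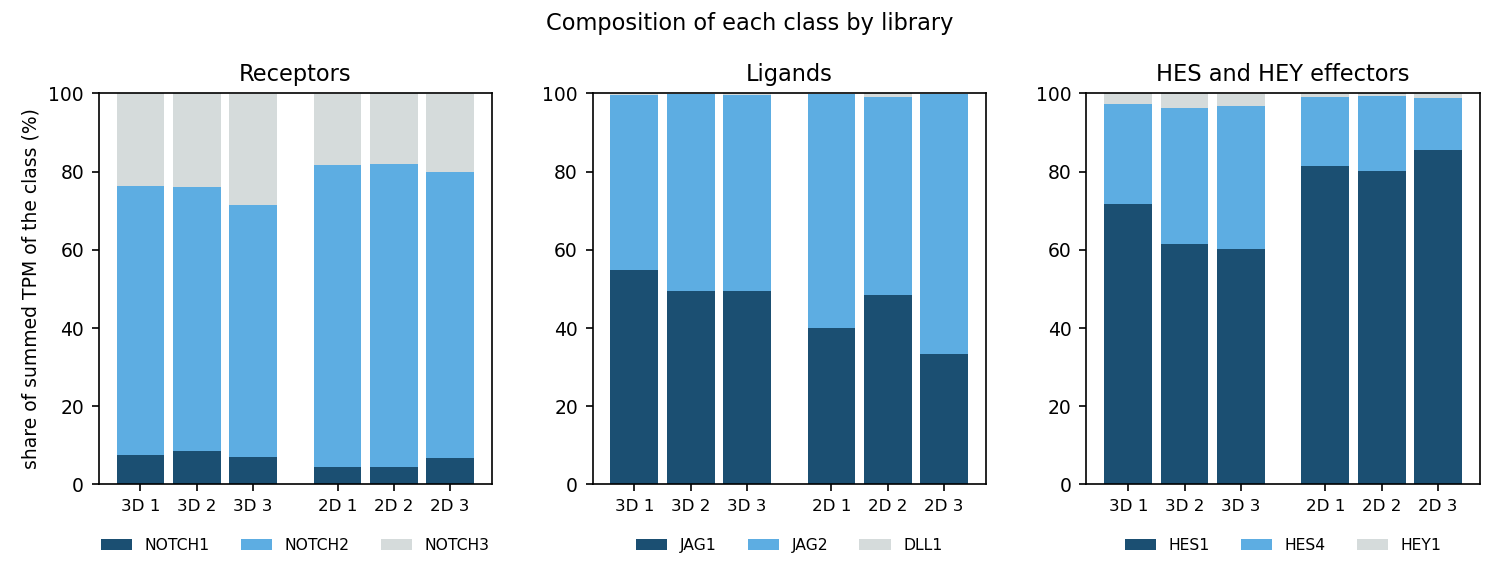
Share of the summed TPM of each class (vertical axis, percent) held by each gene in the 3 libraries in 3D (left bars) and the 3 in 2D (right bars), for receptors, ligands, and HES and HEY effectors. NOTCH2 holds 64.5% to 68.7% of the receptor sum in 3D and 73.1% to 77.7% in 2D, and HES1 holds 60.2% to 71.8% of the effector sum in 3D and 80.1% to 85.6% in 2D.

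HES1 (ENSG00000114315, chr3:194136145-194138732, plus strand) encodes a repressor of the basic helix-loop-helix family. It is a common readout of Notch activity, which was not itself measured here. HES1 had 41.0, 33.3 and 34.2 TPM in 3D, against 99.8, 87.8 and 57.8 TPM in 2D. The 3D libraries lay close together, whereas the 2D libraries spread widely, replicate 3 being the nearest to 3D. The means were 36.2 ± 4.20 TPM in 3D and 81.8 ± 21.6 TPM in 2D (SD, n = 3 each), so that the 3D level was 0.442 of the 2D level. The log2 fold change was -1.12 (SE 0.21, limma adjusted p = 0.0178). It stayed between -1.35 and -0.97 under all 17 alternatives, but the call was lost in 5 of them: adjusted p was 0.0557 with no filter on low TPM, 0.0587 without 3D replicate 1, 0.0795 without 3D replicate 2, 0.0542 without 2D replicate 1 and 0.0757 without 2D replicate 2.

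HES4 (ENSG00000188290, chr1:998962-1000172, minus strand), a close relative of HES1 that mice and rats lack, had 14.6, 19.0 and 20.9 TPM in 3D, against 21.4, 21.1 and 8.93 TPM in 2D. 2D replicate 3 was far below the other libraries, at 0.420 of the mean of the other 2D libraries, and the groups overlapped. HES4 had a log2 fold change of 0.16 (SE 0.32, limma adjusted p = 0.765), and its sign was negative under quantile normalization (near 0), without 2D replicate 3 (-0.23) and with both libraries numbered 3 left out (-0.33). HES1 was called and HES4 was not, and both carry TGGGAA before their start; the difference between their fold changes was not tested beyond the share and ratio given here. The ratio of HES1 to HES4 was 2.80, 1.76 and 1.64 in 3D, against 4.67, 4.16 and 6.48 in 2D, with no overlap; this ratio was chosen after the values were seen.

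HEY1 (ENSG00000164683), a related repressor prominent in blood vessels and heart, was low, at 1.47, 1.96 and 1.75 TPM in 3D against 1.17, 0.74 and 0.78 TPM in 2D. Every 3D library was above every 2D library, yet the log2 fold change of 0.53 (SE 0.22) did not pass the test (limma adjusted p = 0.148). It passed in none of the 16 alternatives in which it was tested, the smallest adjusted p being 0.0716. NRARP (ENSG00000198435, chr9:137300482-137302251, minus strand), a small ankyrin repeat protein that Notch induces and that binds the Notch complex to dampen it, had 2.17, 1.71 and 1.31 TPM in 3D against 3.11, 2.56 and 2.52 TPM in 2D. Its groups did not overlap, in the direction of HES1, but the log2 fold change of -0.46 (SE 0.21, limma adjusted p = 0.173) was not called, here or in any of 16 alternatives (adjusted p between 0.0696 and 0.359).

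Taken as a class, HES1, HES4 and HEY1 summed to 57.1, 54.3 and 56.9 TPM in 3D, against 122, 110 and 67.5 TPM in 2D. The 3D sums were nearly constant and below each 2D sum (exact permutation p = 0.10, 0.15 after adjustment over the 3 sums). HES1 held 64.5% ± 6.39 of this sum in 3D and 82.4% ± 2.87 in 2D (SD, n = 3 each), and HES4 32.5% ± 5.98 in 3D and 16.7% ± 3.10 in 2D (exact permutation p = 0.10 each, 0.112 adjusted over 9 shares). Sums and effector shares were chosen after the values were seen.

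**Figure D3:**
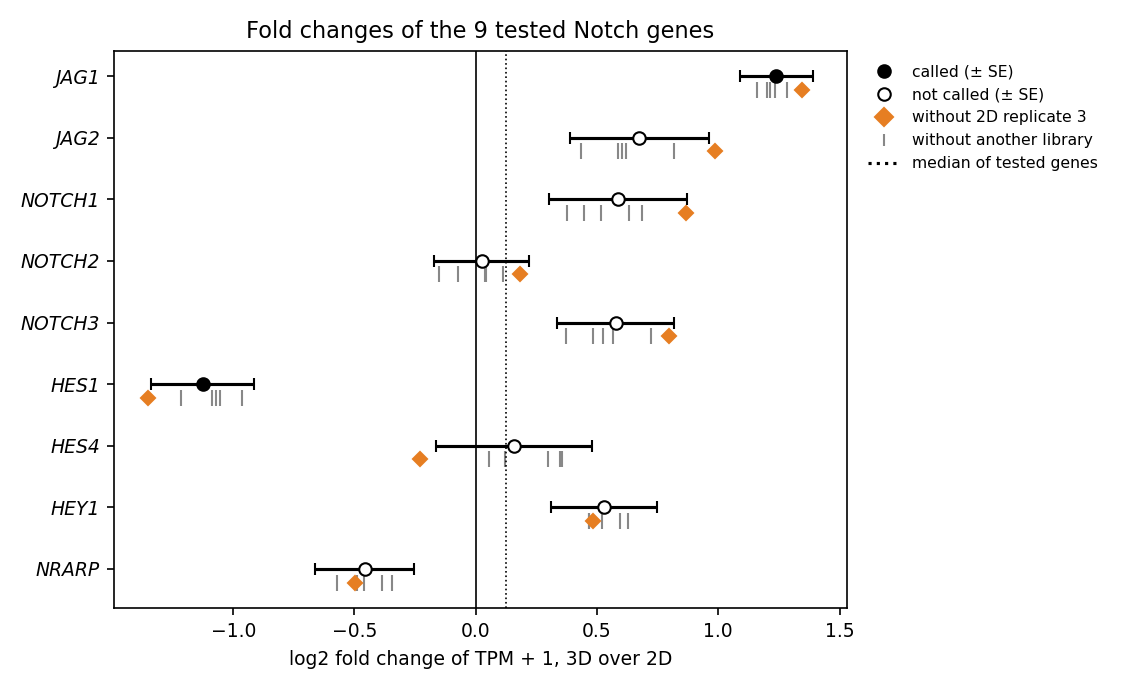
Log2 fold change of TPM + 1, 3D over 2D (horizontal axis), of the 9 tested genes (circles, bars are SE; filled where called), with the values when 1 library was left out below each (orange diamonds without 2D replicate 3, grey ticks without another library) and the median of all tested genes at 0.12 (dotted). JAG1 lies at 1.24 and HES1 at -1.12; leaving out 2D replicate 3 moves JAG2 to 0.99 and NOTCH3 to 0.80.

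By level, the genes fell into a similar order in both cultures. In 3D the order was HES1, NOTCH2, HES4, JAG1, JAG2, NOTCH3, NOTCH1, NRARP, HEY1 and DLL1. Neighbours in that order whose libraries overlapped were HES1 with NOTCH2, the run from HES4 through JAG1 and JAG2 to NOTCH3, and NRARP with HEY1. In 2D the order was HES1, NOTCH2, HES4, JAG2, NOTCH3, JAG1, NRARP, NOTCH1, HEY1 and DLL1. There HES1 stood clear of NOTCH2, while the run from HES4 to JAG1 and the pair of NRARP and NOTCH1 overlapped. JAG1 ranked 4 in 3D and 6 in 2D.

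Within 2D, replicate 3 was highest of the 3 libraries for 5 of the 9 tested members, namely JAG1, JAG2 and the 3 receptors, and lowest for HES1, HES4 and NRARP. Of all tested genes, 36.3% were highest and 40.1% lowest in that library among the 2D libraries. Its part in the fold changes of the members is given by the values without it, beside each gene.

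The genes most like JAG1 over the 6 libraries, by distance between centred log2(TPM + 1) values among 8241 named genes averaging 10 TPM or more, were SLC43A3, ZNF608 and LRRC6 (distances 0.233, 0.257 and 0.270 log2 units). SLC43A3, a purine base transporter, averaged 56.6 TPM in 3D and 24.6 TPM in 2D. Those most like HES1 were SCRN2, SLC16A5 and OVOL2 (0.309, 0.321 and 0.326). OVOL2, a zinc finger repressor that maintains epithelial identity, averaged 5.89 TPM in 3D and 14.5 TPM in 2D. With only 6 libraries in 2 groups, such likeness describes these libraries alone.

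Around these genes, 8 lists of other pathway components, chosen with earlier results of these data known, held 67 genes, of which 52 were tested. Of these, 7 were higher in 3D (13.5%), 2 were lower (3.85%) and 43 did not pass the test, with a median log2 fold change of 0.20, beside 10.2% and 2.12% called and a median of 0.12 over all tested genes. Because the lists were chosen with earlier results known, these shares cannot be weighed against those of all genes. None of the other ligands and receptors and only HES6 of the 7 other HES and HEY genes reached the filter; HES6 had 4.51 to 5.70 TPM in 3D and 1.81 to 5.02 TPM in 2D and was not called.

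Among the tested components, NEURL1B had the largest positive and LFNG the largest negative log2 fold change. NEURL1B, a ubiquitin ligase of the Neuralized family, whose members drive the ligand endocytosis that signalling needs, had 11.6, 14.1 and 8.46 TPM in 3D, against 2.16, 1.68 and 2.33 TPM in 2D. The groups were far apart (log2 fold change 2.00, SE 0.21, limma adjusted p = 0.00248), and NEURL1B was called in all 17 alternatives. The other 4 tested genes of ligand ubiquitination and endocytosis (MIB1, MIB2, EPN1 and EPN2) did not pass the test. Over all tested genes, 10.2% were called higher and 2.12% lower. LFNG, the Lunatic fringe sugar transferase that modifies Notch receptors and weakens their response to Jagged ligands, had 14.3, 12.6 and 21.0 TPM in 3D, against 62.7, 41.6 and 29.1 TPM in 2D. Every 3D library was below every 2D library (log2 fold change -1.39, SE 0.29, limma adjusted p = 0.026). The other 7 genes of receptor glycosylation did not pass, among them the related fringe genes MFNG, at 2.23 to 3.44 TPM in 3D and 1.20 to 2.22 TPM in 2D, and RFNG, at 15.5 to 22.0 TPM in 3D and 17.0 to 23.9 TPM in 2D. LFNG lost its call with no filter (limma adjusted p = 0.0767), without 3D replicate 1 (0.096), without 3D replicate 2 (0.104), without 2D replicate 1 (0.06) and without 2D replicate 2 (0.0887).

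Proteolytic processing had 8 tested genes with a median log2 fold change of 0.26, and 3 of them rose while the other 5 were not called, beside a median of 0.12 and 10.2% called higher over all tested genes. ADAM17, a sheddase, had 35.4, 35.7 and 28.7 TPM in 3D, against 17.9, 17.1 and 24.6 TPM in 2D (log2 fold change 0.73, SE 0.18, limma adjusted p = 0.0377). ADAM10, the main protease of the ligand-induced cut, averaged 97.0 ± 11.7 TPM in 3D and 66.0 ± 5.09 TPM in 2D (0.54, SE 0.14, limma adjusted p = 0.0433; SD, n = 3 each). Among gamma-secretase subunits, NCSTN, APH1A, PSENEN and PSEN2 did not pass, with log2 fold changes of 0.16, 0.01, -0.19 and 0.26. For PSEN2 every 3D library lay above every 2D library. Besides ADAM17 and ADAM10, 1 further called gene of this list is not reported here.

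In the nucleus, RBPJ had 37.5, 49.5 and 36.5 TPM in 3D, against 24.7, 27.6 and 25.5 TPM in 2D, without overlap (log2 fold change 0.63, SE 0.15, limma adjusted p = 0.0371). It was the only 1 of 9 tested genes of the activator complex to pass, beside 10.2% called higher over all tested genes. The coactivators MAML1, MAML2 and MAML3 had log2 fold changes of 0.22, 0.45 and 0.08 without a call. EP300 (0.82, limma adjusted p = 0.079) and CREBBP (0.78, limma adjusted p = 0.0537) exceeded RBPJ in log2 fold change without passing. In both, every 3D library lay above every 2D library, while 2 of the 9 genes had negative log2 fold changes. Of 11 tested corepressors 1 passed, beside the same 10.2% over all tested genes. This was L3MBTL3, a methyl-lysine reader that binds RBPJ, with 8.03, 7.36 and 6.59 TPM in 3D against 4.12, 3.38 and 3.95 TPM in 2D (log2 fold change 0.79, SE 0.16, limma adjusted p = 0.0211). TLE2 had a larger log2 fold change (1.06, limma adjusted p = 0.0845) with groups apart, but did not pass. Of the 11 corepressors, 3 had negative log2 fold changes. Of 10 tested genes of receptor turnover, FBXW7, the ubiquitin ligase adaptor that marks the Notch intracellular domain for degradation, rose to 12.9 ± 1.89 TPM in 3D, against 6.90 ± 1.18 TPM in 2D (0.81, SE 0.18, limma adjusted p = 0.027). DTX2, a Deltex family ubiquitin ligase, fell to 32.6 ± 4.20 TPM in 3D, against 60.0 ± 11.2 TPM in 2D (-0.85, SE 0.17, limma adjusted p = 0.0214; SD, n = 3 each). The other 8 turnover genes were not called, beside 10.2% called higher and 2.12% lower over all tested genes. NUMB, an antagonist of Notch, had 59.9 to 65.4 TPM in 3D and 40.2 to 56.6 TPM in 2D and was not called (0.43, limma adjusted p = 0.109), but was called without 2D replicate 3 (0.57, adjusted p = 0.029) and with both libraries numbered 3 left out (0.58, adjusted p = 0.0242).

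The component calls other than NEURL1B were lost in some fits with 1 library left out. Fewer samples entered these fits. Calls over all tested genes also fell, from 1855 to 396 without 3D replicate 1 and 431 without 3D replicate 2. They came to 805 without 2D replicate 1 and 478 without 2D replicate 2. Without 3D replicate 3 they came to 2158, and without 2D replicate 3 to 2150. NEURL1B was the only component called without 3D replicate 1, without 3D replicate 2 or without 2D replicate 1, and it shared the call with DTX2 alone without 2D replicate 2. RBPJ also missed the threshold without 2D replicate 3 (limma adjusted p = 0.055). ADAM10, ADAM17, RBPJ and FBXW7 lost the call under median-ratio scaling and quantile normalization (limma adjusted p of 0.0557 to 0.104), and L3MBTL3 under quantile normalization (0.0551). These scalings set the median of all tested genes at -0.01 and -0.04, in place of 0.12. JAG1 kept log2 fold changes of 1.10 and 1.03 under these 2 scalings, and HES1 -1.28 and -1.20, each still called; relative to the median of all tested genes without rescaling they stood at 1.12 and -1.25.

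**Figure D4:**
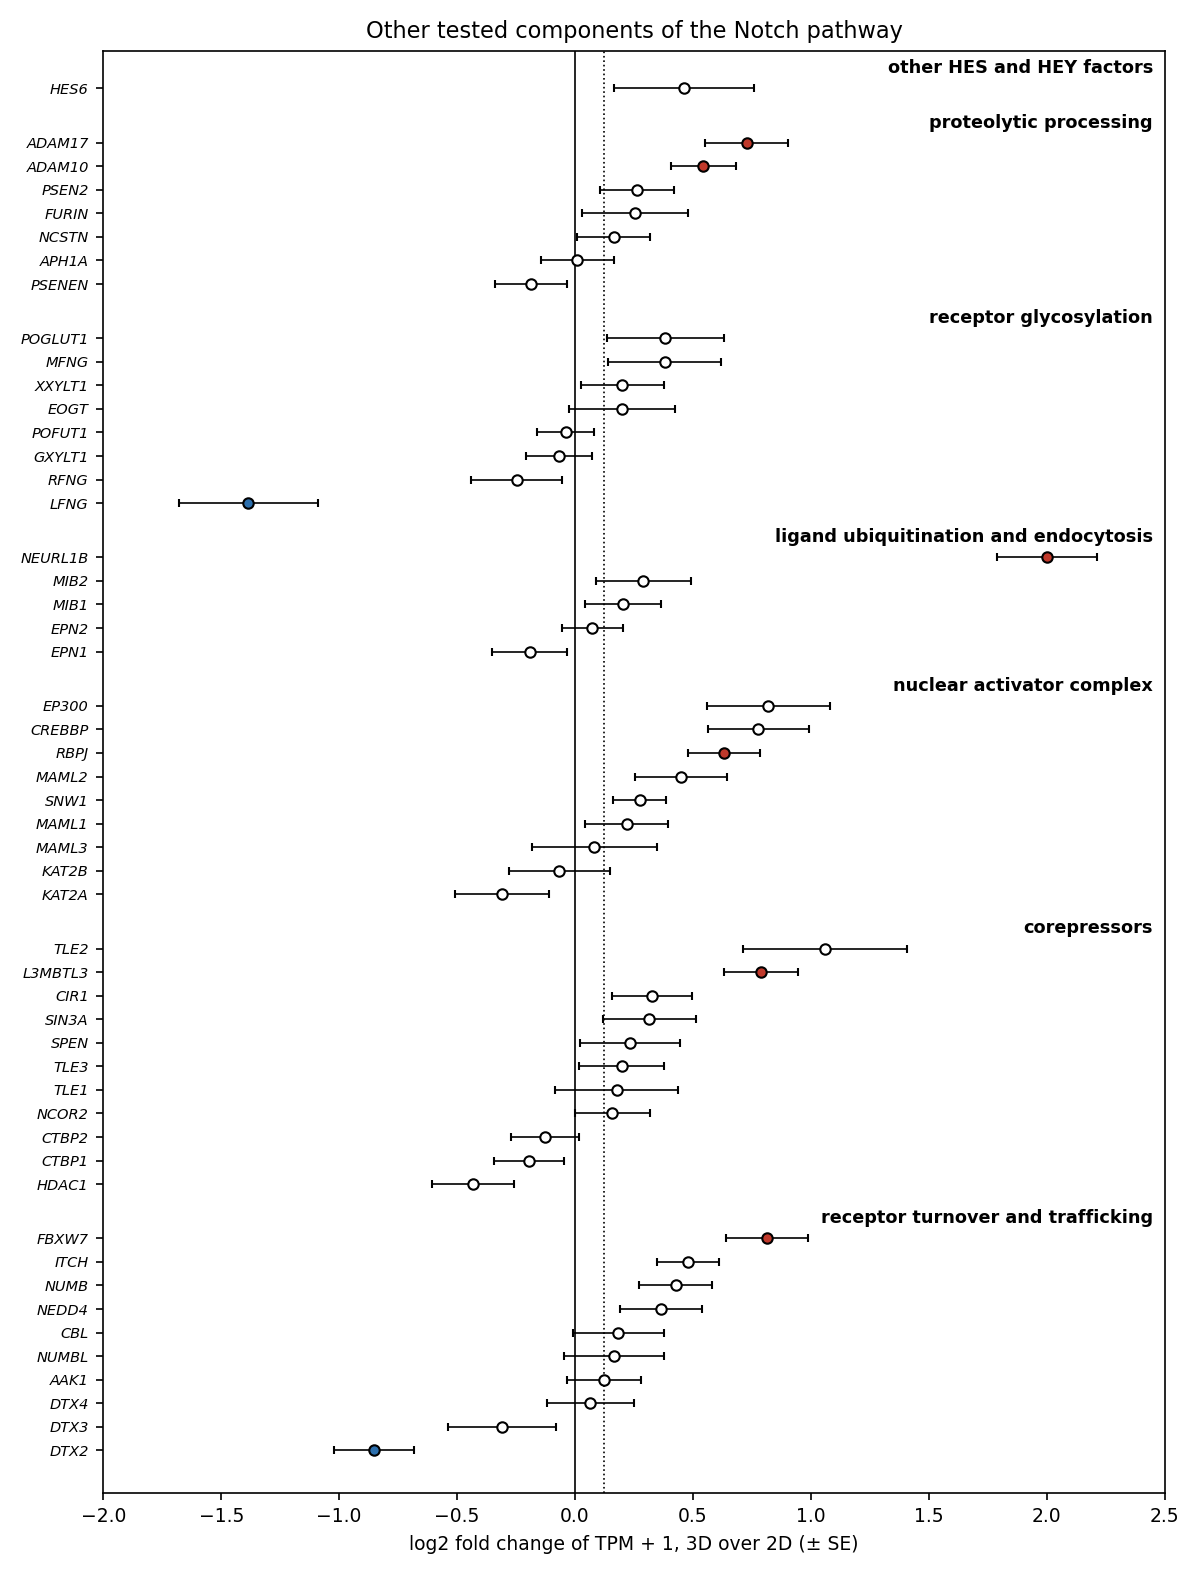
Log2 fold change of TPM + 1, 3D over 2D (horizontal axis, bars are SE), of tested pathway components by role (1 called gene is not drawn); red circles were called higher in 3D, blue circles lower, and open circles were not called, with 0 (solid) and the median of all tested genes at 0.12 (dotted) as lines. NEURL1B, at 2.00, and LFNG, at -1.39, lie furthest from 0.

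Of 5 other genes reported as responsive to Notch in some cell types, 3 rose and the other 2 were not called, beside 10.2% called higher over all tested genes. These 5 were chosen with earlier results of these data known, so their share called cannot be weighed against that of all genes. SOX9, a transcription factor of the growing lung tip and of progenitors, had 11.4, 13.0 and 10.4 TPM in 3D, against 0.21, 0.27 and 0.21 TPM in 2D (log2 fold change 3.36, SE 0.17, limma adjusted p = 0.000145). CDKN1A, an inhibitor of the cell cycle, had 37.0, 46.8 and 37.5 TPM in 3D, against 6.83, 5.76 and 7.76 TPM in 2D (2.41, SE 0.16, limma adjusted p = 0.000334). MYC, a driver of growth and proliferation, had 349, 312 and 289 TPM in 3D, against 105, 90.0 and 106 TPM in 2D (1.65, SE 0.13, limma adjusted p = 0.000811). Each of the 3 was called in all 17 alternatives, and in each the 3D libraries stood far above the 2D libraries. CCND1, the gene of cyclin D1, and NFKB2 did not pass, with log2 fold changes of -0.29 and 0.31. All 5 also respond to many other signals.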

How the data were processed

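The deposited file was a single table of TPM values with 1 column per library, rounded to 2 decimals. Per the labels' protocols, poly(A) RNA was made into libraries with a directional kit and sequenced as single-end reads of 75 nt. Per the submitters' processing notes, the tools were RSEM 1.3.1, STAR 2.7.0d and cutadapt 2.3 and the build was hg38, with no role or order named. No annotation release, strand setting or filter is stated.

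Groups came from the sample titles. Genes averaging 1 TPM or more (15042) were fitted as log2(TPM + 1) with limma 3.58.1 (trend, two-sided, Benjamini-Hochberg over all tested genes, threshold 0.05) in R 4.3.3. Fold changes of low genes are understated by the added pseudocount of 1. The fit was run on simulated data with independent noise in each library. Such data lack scatter shared between libraries, so that run does not test the calls made here. Class sums and shares used exact permutation tests. The members and lists were chosen with earlier results of these data known. All members were named; from other lists, up to 3 called genes per direction, or the 2 most abundant (1 called gene is counted but otherwise not reported here); further genes, such as NUMB, some cell type markers, the fringe genes and uncalled subunits, were chosen after their values were seen. Positions came from GENCODE 29, promoters from RefSeq (GRCh38.p14), and figures from matplotlib 3.10.9. Alternatives were other pseudocounts (0.1 and 5), filters, scalings, variance priors, a replicate block and libraries left out.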

Additional observations from a re-analysis of the deposited data

How the results depend on the processing

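JAG1, NEURL1B, SOX9, CDKN1A and MYC were called in all 17 alternatives. Over 74 single genes and 1246 gene-by-setting fits, 67 lost a call, 22 gained one and none was called in the other direction. Members called numbered 2, components 9 and all genes 1855 (1536 higher, 319 lower). With no filter these were 1, 1 and 815 (729 and 86), where 33924 genes were tested. With median-ratio scaling, members stayed at 2 and components came to 4, with 971 genes higher and 612 lower; with quantile normalization components came to 3, with 869 and 576. The share of calls that were higher was 82.8%, against 61.3% and 60.1% under these scalings. Without both libraries numbered 3, members came to 4, components to 15 and genes to 3820 (2464 and 1356). With 1 library left out, members ranged from 1 to 4, components from 1 to 11, and genes from 396 to 2158 (367 to 1607 higher, 29 to 563 lower); fewer samples were fitted there, and beyond that the causes were not tested.

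Differences in share with 1 library left out ranged from 2.12 to 3.33 percentage points for NOTCH1, -10.6 to -7.90 for NOTCH2, 4.98 to 7.41 for NOTCH3, 7.08 to 14.7 for JAG1, -14.8 to -6.85 for JAG2, -21.6 to -15.8 for HES1, 13.7 to 19.2 for HES4 and 1.90 to 2.42 for HEY1. The DLL1 difference of -0.0827 ranged from -0.235 to 0.192, and turned to 0.0114 without 3D replicate 2 and 0.192 without 2D replicate 2.

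The sample titles give replicate numbers but no pairing. Deviations of same-numbered libraries correlated at 0.101, 0.0365 and 0.185 across genes, and those of differently numbered libraries at -0.168 to 0.127. 3D replicate 1 correlated best with 2D replicate 2 (0.127), and 3D replicates 2 and 3 with the 2D library of the same number. Whether the numbers mark a pairing or a shared batch was not tested. With the replicate block, 1874 genes (1479 higher, 395 lower), 2 members and 9 components were called; among components, ADAM10 (limma adjusted p = 0.0713) and ADAM17 (0.0568) lost the call and EP300 (0.0395) and TLE2 (0.0274) gained one. Within-number differences of shares gave exact sign permutation p = 0.25, the smallest that 3 pairs allow, apart from DLL1 (p = 1).

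TPM keeps no depth, so values near 0, such as those of DLL1, carry an unknown counting error.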

Other observations

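Airway cell fates that Notch steers were read from short lists, chosen with earlier results of these data known. Of 6 secretory cell genes, 3 were tested, 1 fell and none rose, beside 2.12% called lower and 10.2% called higher over all tested genes. MUC5AC, a gel-forming mucin of goblet cells, had 0.68, 0.78 and 1.47 TPM in 3D, against 3.50, 3.23 and 2.7 TPM in 2D (log2 fold change -1.08, SE 0.23, limma adjusted p = 0.0257). Its groups did not overlap, but the call was lost with no filter (limma adjusted p = 0.0823), without 3D replicate 1 (0.0969), without 3D replicate 2 (0.0924), without 2D replicate 1 (0.0849) and without 2D replicate 2 (0.0995). MUC5B, the other main airway mucin, had 98.9, 131 and 138 TPM in 3D, against 256, 206 and 147 TPM in 2D, and did not pass the test (limma adjusted p = 0.0819). It was called without 2D replicate 3 (-0.91, adjusted p = 0.0236) and under median-ratio scaling (-0.85, adjusted p = 0.0443), and also without both libraries numbered 3 (-1.0, adjusted p = 0.0113). SPDEF, the transcription factor of goblet cells, had 16.3, 13.9 and 34.2 TPM in 3D, against 54.5, 43.9 and 32.1 TPM in 2D. It did not pass (limma adjusted p = 0.079), but did without 3D replicate 3 (-1.44, adjusted p = 0.018) and without both libraries numbered 3 (-1.64, adjusted p = 0.00224).

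Of 4 basal cell genes only TP63, their master transcription factor, was tested, and it rose: 12.2, 5.99 and 7.28 TPM in 3D, against 1.08, 1.16 and 1.15 TPM in 2D (log2 fold change 2.10, SE 0.25, limma adjusted p = 0.00415). Over all tested genes 10.2% were called higher, and 1 tested gene does not describe the list. KRT5, the defining keratin of basal cells, was at most 0.11 TPM in any library, and KRT14, its usual keratin partner, was listed at 0.44, 0.43 and 0.85 TPM in 3D and at 0 in every 2D library. Of 6 ciliated cell genes 4 were tested and none passed, beside 10.2% called higher and 2.12% lower over all tested genes. FOXJ1, the regulator of motile cilia, had 6.87, 4.00 and 6.25 TPM in 3D and 12.7, 8.80 and 2.08 TPM in 2D. CCNO, a regulator of centriole amplification, had 4.19, 4.91 and 2.32 TPM in 3D and 6.98, 7.16 and 4.56 TPM in 2D. Of 8 neuroendocrine genes none reached the filter, and 6 were listed at 0 in every library.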
